A study of Mus musculus with 4 samples.

Results

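Receptors for extracellular nucleotides and the enzymes that split these nucleotides were represented on the arrays by 17 probes of 10 genes, among 39429 probes in all. The members were the ATP-gated channel genes P2rx2, P2rx3, P2rx4 and P2rx7, the G protein-coupled receptor genes P2ry1, P2ry2, P2ry4 and P2ry6, and the ectonucleotidase genes Entpd1 and Entpd2. Every probe named for one of these genes in the array files was taken, whatever its value. The arrays compared Sox2-Tbx2LOF with control organs of Corti, the sensory epithelium of the cochlea, at E18.5, close to birth. The question was which transcripts depend on the transcription factor Tbx2 once hair cells and supporting cells have formed.

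Sox2-Tbx2LOF embryos had the genotype Sox2(creERT2);Tbx2(fl/fl), in which a tamoxifen-dependent recombinase is made in Sox2-expressing cells and deletes the floxed Tbx2 alleles there. Controls had no recombinase and are labelled Tbx2(fl/n.d.), which leaves their second Tbx2 allele unstated. The recombinase is knocked into the Sox2 gene and was carried by the Sox2-Tbx2LOF embryos alone, so that loss of Tbx2 and the knock-in itself cannot be told apart. Both groups were of the NMRI strain, and the methods name dams homozygous for the R26mTmG reporter in the mutant crosses. All dams received 4 mg of tamoxifen by mouth at E16.5, together with progesterone. Each of the 4 arrays held the RNA of a Sox2-Tbx2LOF pool and of a control pool of the same sex, each pool being made from the basal part of many cochleae, without spiral ganglion and ligament. Arrays 1 and 2 were female and arrays 3 and 4 male. The Sox2-Tbx2LOF RNA carried the dye Cy3 on arrays 1 and 3 and Cy5 on arrays 2 and 4. There were therefore n = 4 pools per genotype.

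ATP outside the cell acts on P2X receptors, which are cation channels, and on P2Y receptors, which signal through G proteins. In the cochlea before the onset of hearing, supporting cells of the inner side of the epithelium release ATP through connexin hemichannels. The nucleotides bind P2ry1 on the same cells, the released calcium opens the chloride channel Ano1, and the potassium that leaves with the chloride depolarises neighbouring inner hair cells. Ectonucleotidases such as Entpd1 and Entpd2 end the signal by hydrolysing ATP and ADP.

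Of the 10 genes, 9 were well above background and 1, P2ry4, was not. No member differed between the genotypes after correction for all tested probes. The 16 tested member probes had log2 ratios of Sox2-Tbx2LOF over control between −0.27 and 0.11, that is, mean differences of at most 1.20-fold. Entpd2 had the lowest ratio and P2ry1 the next lowest, and these were the only members with an unadjusted p under 0.05. P2ry1 lost this without array 4 (limma, unadjusted p 0.0667). Entpd2 lost it with the authors' processed values (limma, unadjusted p 0.0702), without the dye term (0.0723) and without the pairing by array (0.0726). Because whole tissue was measured, fewer cells of a type and less RNA per cell cannot be told apart.

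Calls combined an adjusted p under 0.05 with a minimum fold of 1.5 either way, from limma with a term for the dye and Benjamini-Hochberg adjustment over 28104 tested probes. By this rule 0 of the 16 member probes were called, against 0.249% of all tested probes. An adjusted p under 0.05 without a minimum fold was reached by 0 of 16 member probes, against 0.982% of all tested probes. Significance Analysis of Microarrays (SAM), a comparison named in the methods of the study but run here with other settings, also called 0 members. An unadjusted p under 0.05 was found for 2 of 16 member probes, both lower in Sox2-Tbx2LOF, against 7.11% of all tested probes and 3.54% for the lower direction. The median log2 ratio of the member probes was −0.03, beside 0.002 over all tested probes. Ratios were below 0 for 10 member probes and above 0 for 6.

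The intervals around the member ratios were narrow in the fit with the dye term. The 95% confidence interval of the log2 ratio lay within 1.5-fold in either direction for 16 of 16 member probes, with a lowest bound of −0.43 for Entpd2 and a highest bound of 0.25 at a P2rx3 probe. Among all tested probes this held for 27923 of 28104. The median distance from a member probe's ratio to its interval bound was 0.11, close to the 0.12 of all tested probes. In other fits the lowest bound of any member probe was further from 0. It was −0.56 without the dye term and −0.58 with the authors' processed values, still within 1.5-fold. Positions and sizes of the member ratios are shown in the plot of member ratios by array.

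**Figure D1:**
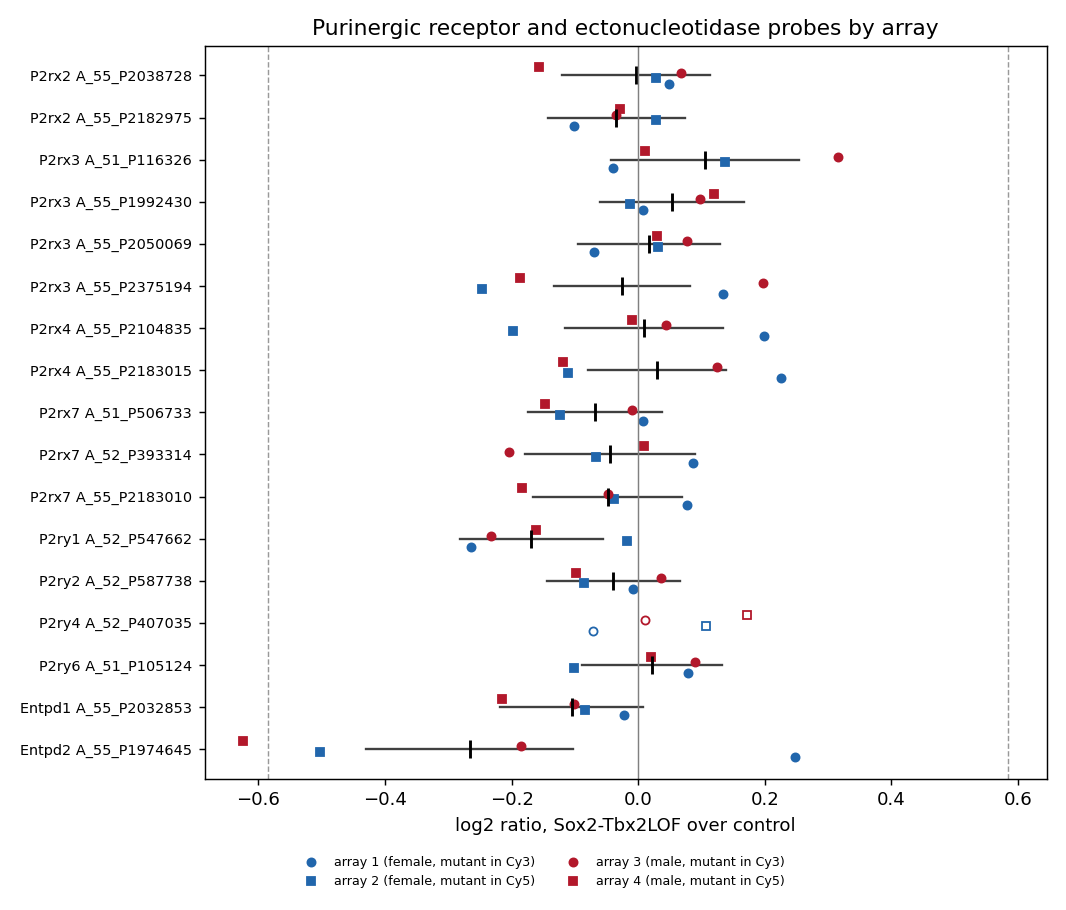
The log2 ratio of Sox2-Tbx2LOF over control (horizontal axis) is shown for each of the 17 member probes on each array, with circles for arrays with Sox2-Tbx2LOF in Cy3, squares for Cy5, blue for female and red for male pools. Black ticks and lines are the mean and its 95% confidence interval from limma, dashed lines mark a 1.5-fold difference, and the open symbols are P2ry4, which was not tested. All 16 intervals end inside the dashed lines, and the 4 Entpd2 points, between −0.62 and 0.25, spread widest.

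The tissue was checked by lists of marker genes. Neuron, Schwann cell, macrophage, endothelial and mesenchyme markers were all measured in both genotypes, so that the receptor levels belong to a mixed tissue. The outer hair cell marker Slc26a5 was not well above background. All 5 inner hair cell markers, which included the deleted gene Tbx2, had ratios below 0, and Cabp2, Fgf8 and Slc17a8 were called lower. Their summed log2 level was 14.01 to 14.31 in Sox2-Tbx2LOF and 14.33 to 14.57 in control pools. Of the 5 inner supporting cell markers, Fgf20 and Otol1 were called lower, Fabp7 was at −0.01, and Slc1a3 and Lfng were at 0.02 and 0.08. The median log2 ratio of that list was −0.006, and its summed level was 16.61 to 16.88 against 16.68 to 16.9. The study had reported Cabp2, Fgf8, Slc17a8, Fgf20 and Otol1 as reduced in these same arrays. Their lower ratios are therefore not an independent check of the tissue. The 6 mesenchyme markers had a median log2 ratio of 0.12 with none called, and a summed level of 17.99 to 18.1 against 17.72 to 17.99. Tbx2 itself had a log2 ratio of −0.15 (limma, adjusted p 0.313). Median spot signals were 315 to 412, local background was 31 to 80, and no spot was saturated. The part of these shifts in the ratios of the receptor genes was not tested.

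P2rx2 encodes a channel subunit that gives hair cells and sensory neurons their ATP-gated current. It had 2 probes, both on the minus strand of chromosome 5 of the mouse build mm9. Probe A_55_P2038728 starts at base 1165 of transcript NM_001164834 (chr5:110769525-110769584) and is a stretch in which 1 forward frame holds no stop codon. Probe A_55_P2182975 starts at base 1857 of NM_153400 (chr5:110768833-110768892), nearer to the 3′ end. P2rx7 encodes a channel that ATP opens only at high concentration and that is known from macrophages. Its probe A_51_P506733 starts at base 1125 of NM_001038845, and the 60 probe bases span 2886 bases of the genome on the plus strand (chr5:123120528-123123413), so that this probe reads a spliced transcript across a junction. These 2 probe sequences are shown to make clear which part of each transcript was measured. The array files do not state whether a probe lies in coding sequence. In the P2rx2 sequence, capitals mark 19 codons of the only forward frame without a stop codon. The P2rx7 sequence has 2 such frames and is given in lower case throughout.
P2rx2 A_55_P2038728: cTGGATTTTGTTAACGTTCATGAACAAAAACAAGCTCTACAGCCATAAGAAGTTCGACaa
P2rx7 A_51_P506733: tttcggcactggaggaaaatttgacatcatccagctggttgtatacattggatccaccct

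The first P2rx2 probe, A_55_P2038728, gave log2 ratios of 0.05, 0.03, 0.07 and −0.16 on arrays 1 to 4. The male array with Sox2-Tbx2LOF in Cy5 stood apart from the other 3, which lay close to 0. The mean of this first probe was 0.00 ± 0.10 (SD, n = 4). Its channel levels were dim, at 7.43 to 7.69 in Sox2-Tbx2LOF and 7.38 to 7.69 in control pools. Ratios of dim probes are drawn towards 0 by the processing. The second P2rx2 probe gave −0.10, 0.03, −0.04 and −0.03, with a mean of −0.03 ± 0.05 (SD, n = 4). Channel levels of the second probe were 10.91 to 11.29 in Sox2-Tbx2LOF and 11.01 to 11.33 in control pools and overlapped almost completely. Neither P2rx2 probe differed between genotypes beyond the spread of the pools.

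P2rx3, whose product forms ATP-gated channels alone or together with P2rx2 and is best known from sensory neurons, was read by 4 probes on the minus strand of chromosome 2. Probe A_51_P116326 starts at base 1944 of NM_145526 (chr2:84838898-84838957) and had the highest ratio of all members. Its log2 ratios were −0.04, 0.14, 0.32 and 0.01. The mean was 0.11 ± 0.16 (SD, n = 4), and the male array with Sox2-Tbx2LOF in Cy3 lay above the other 3. The mean rested on single arrays, being 0.017 without array 3 and 0.195 without array 1. The unadjusted p in limma was 0.138 and the adjusted p 1. Probe A_55_P1992430 lies further along the same transcript, at base 3132 (chr2:84837707-84837766), and averaged 0.05 ± 0.07 (SD, n = 4) on the log2 scale. Probe A_55_P2050069 (chr2:84836045-84836104) had a mean of 0.02 ± 0.06. Probe A_55_P2375194 (chr2:84870378-84870437), matched in the array files to the separate transcript AK019679, had ratios of 0.13, −0.25, 0.20 and −0.19, positive wherever Sox2-Tbx2LOF was in Cy3 and negative wherever it was in Cy5. Its mean was −0.03 ± 0.22 (SD, n = 4). The 4 probes thus gave ratios on both sides of 0, none of them past the test.

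P2rx4, a channel subunit found in many tissues, was read by 2 probes on the plus strand of chromosome 5, within the same stretch of the genome as P2rx7. Probe A_55_P2183015 starts at base 1924 of NM_011026 (chr5:123178983-123179042). Its log2 ratios were 0.23, −0.11, 0.12 and −0.12, again with the sign of the dye orientation. The mean was 0.03 ± 0.17 (SD, n = 4). Probe A_55_P2104835 (chr5:123179545-123179604) gave 0.20, −0.20, 0.04 and −0.01, with a mean of 0.01 ± 0.16 (SD, n = 4). Levels were 13.47 to 13.65 in Sox2-Tbx2LOF and 13.42 to 13.65 in control pools at the first of these probes. They were 7.94 to 8.24 and 8.04 to 8.17 at the second, so that the Sox2-Tbx2LOF pools spread on both sides of the control pools there.

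All 3 P2rx7 probes had mean log2 ratios slightly below 0, between −0.07 and −0.04, and none passed the test. The junction probe gave 0.01, −0.12, −0.01 and −0.15, which makes a mean of −0.07 ± 0.08 (SD, n = 4), with an unadjusted p of 0.176 and an adjusted p of 1 in limma. Probe A_52_P393314 at base 4831 of NM_011027 (chr5:123134194-123134253) gave 0.09, −0.07, −0.20 and 0.01. Probe A_55_P2183010 starts at base 712 of the transcript NM_001038887 (chr5:123105174-123105233) and gave 0.08, −0.04, −0.05 and −0.18. Macrophage markers, to be read beside P2rx7 because macrophages express it, had a median log2 ratio of −0.02 over 7 genes, with 6 below 0 and 1 above 0. Their summed level was 13.73 to 13.91 in Sox2-Tbx2LOF and 13.67 to 13.9 in control pools.

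At A_55_P2183010 the P2rx7 levels fell from array 1 to array 4 in both genotypes. The female arrays were thus above the male arrays, in a difference that did not pass correction. The log2 levels of P2rx7 at this probe were 8.93 and 8.59 in the female Sox2-Tbx2LOF pools and 8.85 and 8.63 in the female control pools. They were 8.29 and 8.07 in the male Sox2-Tbx2LOF pools and 8.34 and 8.25 in the male control pools. All 4 female pools were above all 4 male pools. The levels also differed between the 2 arrays of each sex, and the pools of an array share a hybridisation. How many of all tested probes separate the sexes in this way was not counted. The mean of the male arrays was lower by a log2 difference of −0.51 (SE 0.103), with an unadjusted p of 0.00156 in limma, where 7.03% of all tested probes had an unadjusted p under 0.05 for sex. The adjusted p in limma was 0.452, where 0.0463% of all tested probes had one under 0.05, and the comparison rests on 2 arrays per sex and was added after the values were seen. The other 2 P2rx7 probes differed between the sexes by −0.07 and 0.05 only. Sex and the array pair that carried it cannot be told apart here.

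**Figure D2:**
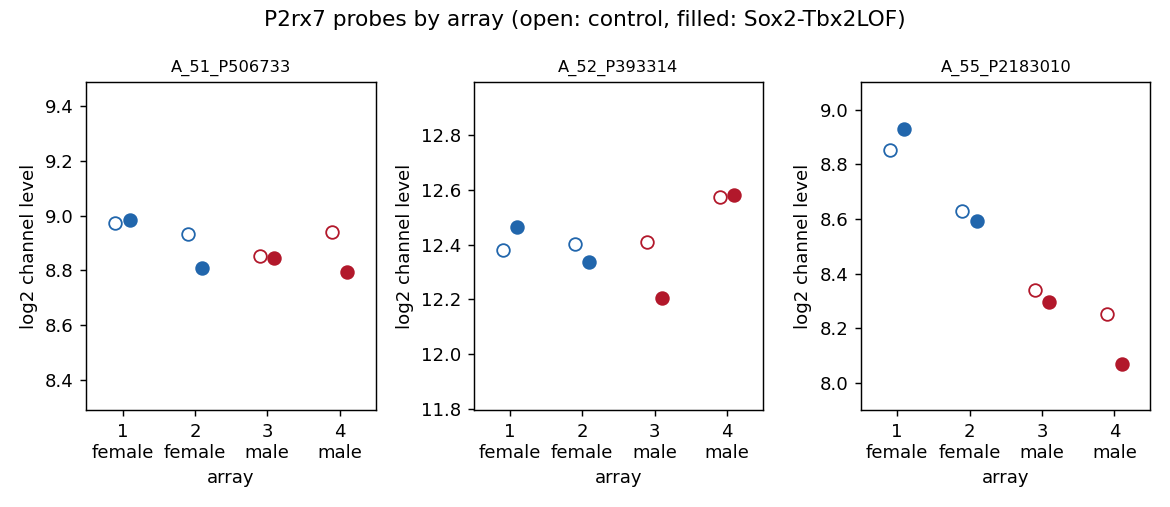
Log2 channel levels after normalization (vertical axis, equal span in each panel) of the 3 P2rx7 probes are shown by array (horizontal axis), with open circles for control and filled circles for Sox2-Tbx2LOF pools, blue for female and red for male. In the right panel the levels fall from array 1 to array 4. All female pools there lie above all male pools, by a mean log2 difference of 0.51 between arrays, which did not pass correction (limma, adjusted p 0.452). The 2 other panels show differences of 0.07 or less between the sexes.

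P2ry1 encodes the ADP receptor that starts calcium signals in supporting cells of the immature cochlea. Its probe A_52_P547662 starts at base 3594 of NM_008772 (chr3:60812600-60812659, plus strand). Log2 levels of P2ry1 in the Sox2-Tbx2LOF pools of arrays 1 to 4 were 10.65, 10.90, 10.90 and 10.86. In the control pools they were 10.92, 10.92, 11.13 and 11.02. Every Sox2-Tbx2LOF pool lay below every control pool, but the highest Sox2-Tbx2LOF pool, that of array 2, nearly reached the lowest control pool. P2ry1 was the only member whose levels did not overlap between genotypes, which held in the lower direction for 1.34% of all tested probes.

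The log2 ratios of P2ry1 were −0.26, −0.02, −0.23 and −0.16, lower on 4 of 4 arrays, as were 4.62% of all tested probes. The mean was −0.17 ± 0.11 (SD, n = 4), which corresponds to 11.0% less signal than in control with a 95% interval of 3.82% to 17.7%. The limma fit gave an SE of 0.049 and an unadjusted p of 0.0083. After correction P2ry1 was not past the threshold (limma, adjusted p 0.274). The mean P2ry1 ratio was −0.14 on the female and −0.20 on the male arrays. With Sox2-Tbx2LOF in Cy3 it was −0.25, and with Sox2-Tbx2LOF in Cy5 it was −0.09.

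The other P2Y receptor genes showed no such order. P2ry2, a receptor for ATP and UTP, had log2 ratios of −0.01, −0.09, 0.04 and −0.10 at probe A_52_P587738 (chr7:108145553-108145612, minus strand), with a mean of −0.04 ± 0.06 (SD, n = 4). P2ry6, a UDP receptor, lies close to P2ry2 on chromosome 7 and gave 0.08, −0.10, 0.09 and 0.02 at probe A_51_P105124 (chr7:108086149-108086208, minus strand). Its mean was 0.02 ± 0.09 (SD, n = 4). P2ry4 was not well above background on any array in either genotype at its single probe A_52_P407035 (chrX:97785508-97785567, minus strand). Its log2 levels of 5.98 to 6.20 were all under the lowest levels that counted as well above background, which were 6.31 to 6.53 depending on the pool, so no fold was given.

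Entpd2 encodes an ectonucleotidase that turns ATP mainly into ADP and is known from glia and supporting cells. Its probe A_55_P1974645 starts at base 1845 of NM_009849 (chr2:25256752-25256811, plus strand). Log2 levels of Entpd2 in the Sox2-Tbx2LOF pools of arrays 1 to 4 were 10.64, 10.44, 10.60 and 10.53. In the control pools they were 10.39, 10.94, 10.79 and 11.16. The Sox2-Tbx2LOF pools lay within a narrow band with an SD of 0.09, and the control pools ranged on both sides of it with an SD of 0.33. The control pool of array 1 was the lowest of all 8 pools and the other 3 control pools were above every Sox2-Tbx2LOF pool.

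The log2 ratios of Entpd2 were therefore 0.25, −0.50, −0.19 and −0.62, lower on 3 of 4 arrays. The mean was −0.27 ± 0.39 (SD, n = 4), or 16.8% less signal than in control with a 95% interval of 6.88% to 25.7% from limma with the dye term. The unadjusted p was 0.00529, and Entpd2 did not pass the correction (limma, adjusted p 0.208). Without array 1, the only array on which Entpd2 was higher, the log2 ratio was −0.37 and the adjusted p in limma 0.0355. That fit left array 3 as the only one with Sox2-Tbx2LOF in Cy3. It also called more of all tested probes, 106 beside 70. Over the 14 alternatives the Entpd2 ratio lay between −0.37 and −0.16, with adjusted p between 0.0355 and 1.

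The fitted dye term was larger for Entpd2 than for most probes. It was −0.30 on the log2 scale, towards less signal in Cy5, a size reached in either direction by 1.44% of all tested probes. On array 3 the Cy5-labelled pool, the control, was instead the higher one, at 10.79 against 10.60. Dye orientation and the pools that carried it cannot be told apart here. With Sox2-Tbx2LOF in Cy3 the mean ratio was 0.03, and with Sox2-Tbx2LOF in Cy5 it was −0.56. Without the dye term the unadjusted p of Entpd2 was 0.0723. By sex, the mean ratio was −0.13 on the female and −0.40 on the male arrays. The sex by genotype term for Entpd2 had an unadjusted p of 0.0531 in limma, and 0 of 16 member probes had one under 0.05, against 2.01% of all tested probes. No member had an adjusted p under 0.05 for that term, and none of all tested probes did.

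Entpd1 encodes the enzyme CD39, which hydrolyses ATP and ADP and is carried by vessels and immune cells. At probe A_55_P2032853 (chr19:40816008-40816067, plus strand) the log2 ratios of Entpd1 were −0.02, −0.08, −0.10 and −0.21. The ratio was below 0 on 4 of 4 arrays, with a mean of −0.10 ± 0.08 (SD, n = 4). The levels overlapped, at 8.96 to 9.12 in Sox2-Tbx2LOF and 9.08 to 9.21 in control pools. In limma the unadjusted p was 0.0654 and the adjusted p 0.788. Endothelial markers had a median log2 ratio of 0.04, all 5 of them above 0, and none called. Macrophage markers had a median log2 ratio of −0.02, with 6 below 0 and 1 above 0, and none called. The part of these cells in the Entpd1 ratio was not tested.

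**Figure D3:**
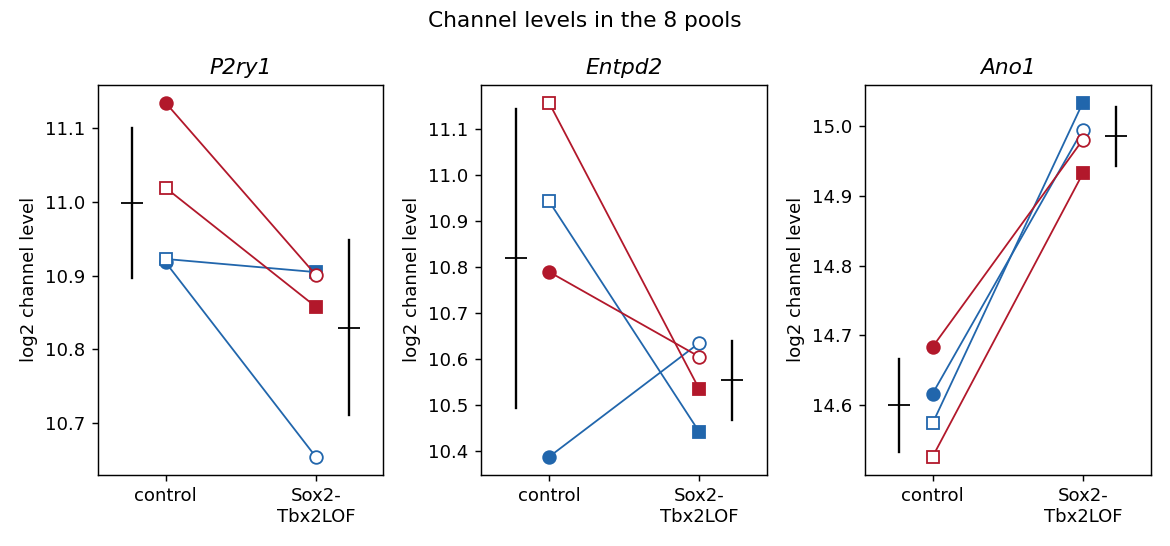
Log2 channel levels (vertical axes, separate scales) of P2ry1, Entpd2 and Ano1 are shown in the 4 control and the 4 Sox2-Tbx2LOF pools, with lines joining the pools of an array, circles for arrays 1 and 3, squares for arrays 2 and 4, filled symbols for Cy5 and open symbols for Cy3, blue for female and red for male. Side bars are the mean ± SD over 4 pools. P2ry1 levels do not overlap between genotypes, the Entpd2 line runs upward on array 1 and downward on the other 3, and Ano1 was higher in Sox2-Tbx2LOF on all 4 arrays.

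The other genes of the pathway were taken from lists of receptors, enzymes, adenosine handling, ATP release and P2Y coupling. Of 42 such genes on the array, 39 were tested with 50 probes, while P2ry10, Adora3 and Plcb2 were not well above background on enough arrays. Their median log2 ratio was 0.001, with 24 probes below and 26 above 0. None of the 50 probes was called by limma or SAM, beside 0.249% of all tested probes called by limma. An unadjusted p under 0.05 was found for 10 of the 50, of which 4 were lower and 6 higher, against 7.11% of all tested probes. An adjusted p under 0.05 was reached by 1 of the 50, against 0.982% of all tested probes.

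That probe was A_55_P2038747 of Ano1, the calcium-activated chloride channel that acts downstream of P2ry1. Log2 levels of Ano1 in the Sox2-Tbx2LOF pools were 14.99, 15.03, 14.98 and 14.93. In the control pools they were 14.62, 14.57, 14.68 and 14.53. The genotypes did not overlap, which held in the higher direction for 1.2% of all tested probes. The log2 ratios were 0.38, 0.46, 0.30 and 0.41, and the mean was 0.38 ± 0.07 (SD, n = 4), with an adjusted p of 0.00677 in limma. Its 95% interval of 0.28 to 0.49 lies below 1.5-fold, so Ano1 was higher by less than the minimum fold of the call. Over the alternatives the Ano1 ratio lay between 0.365 and 0.405, and the adjusted p was 0.00305 to 0.201. The highest of these came from the authors' processed values, with which Ano1 was no longer past the threshold.

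The remaining lists are described by their members with the smallest unadjusted p. Among ATP release genes, Gja1, a gap junction connexin, had log2 ratios of −0.16, −0.32, −0.14 and −0.09 with an adjusted p of 0.313 in limma, and 2 of the 7 probes of that list had an unadjusted p under 0.05, both lower. The adenosine receptor gene Adora1 gave −0.19, −0.20, −0.21 and −0.02 (limma, adjusted p 0.385), 1 of 9 probes of the adenosine list with an unadjusted p under 0.05. Enpp2, which encodes the secreted enzyme autotaxin, gave 0.06, 0.30, 0.13 and 0.21 (limma, adjusted p 0.221). The ectonucleotidase list held 4 of 14 probes with an unadjusted p under 0.05, of which 3 were higher and 1 lower. For P2rx1 and P2ry12 the mean log2 ratios were −0.07 and 0.07, and 0 of 3 further P2X and 0 of 3 further P2Y probes had an unadjusted p under 0.05.

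**Figure D4:**
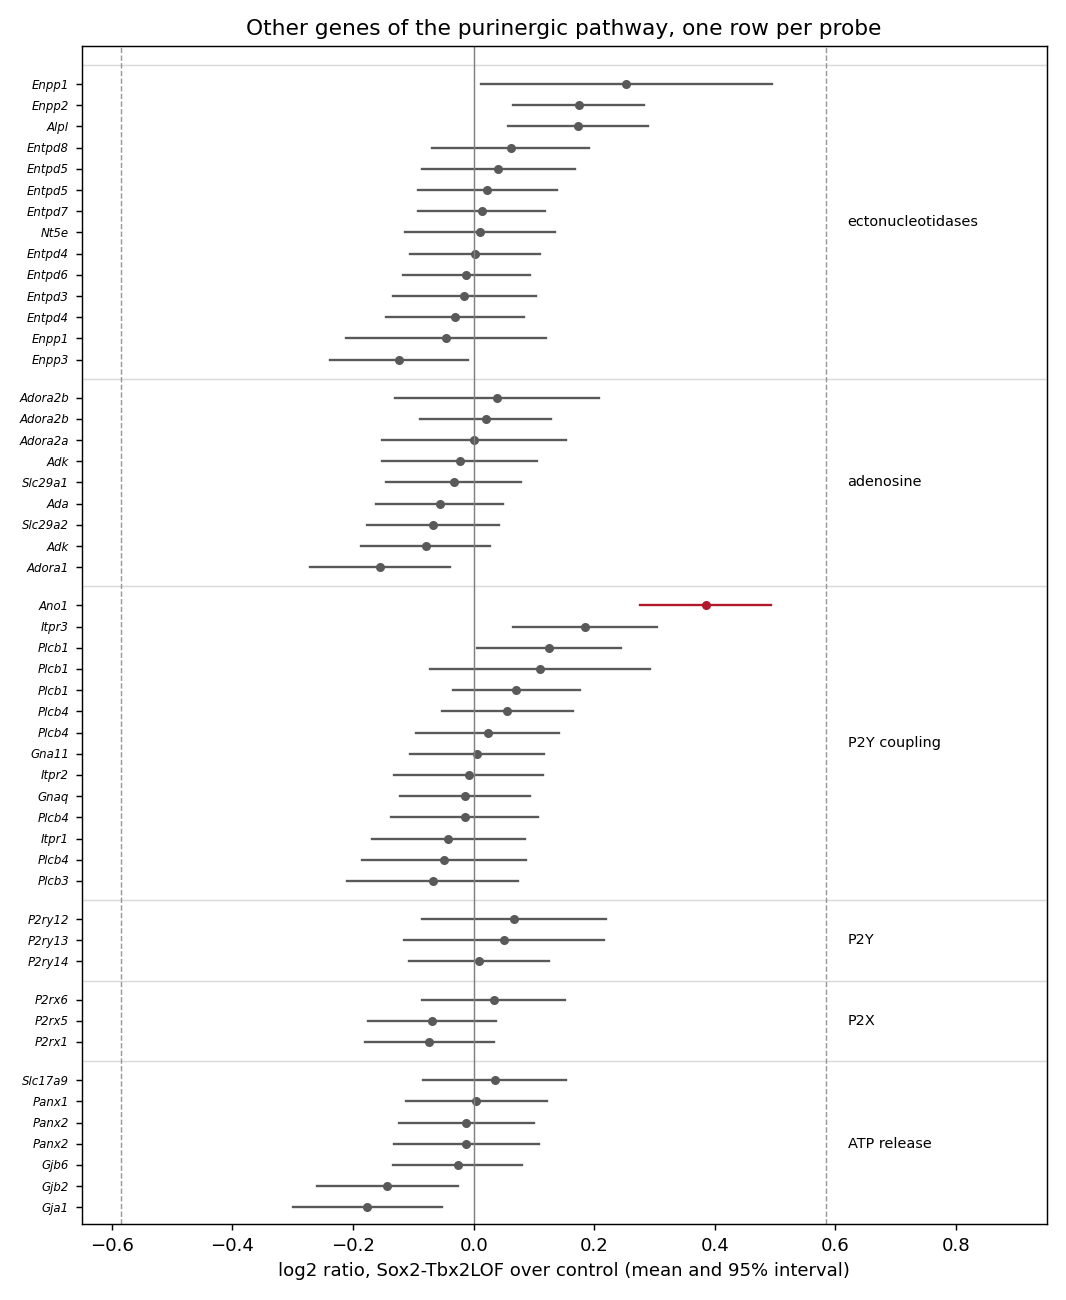
The mean log2 ratio of Sox2-Tbx2LOF over control with its 95% confidence interval from limma (horizontal axis) is shown for each of the 50 tested probes of other purinergic pathway genes, grouped by list, with dashed lines at a 1.5-fold difference. Ano1, in red, is the only probe with an adjusted p under 0.05, at a mean log2 ratio of 0.38, and all 50 intervals end inside the dashed lines.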

How the data were processed

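Members and gene lists were chosen with earlier results of these data known. The authors deposited scanner output of Agilent Feature Extraction 10.7.3.1 (version per the submitters' processing notes), in which the spot intensity of either channel is not normalized. They also hold a log10 ratio of processed signals and flags, and the deposited series matrix holds a score, the authors' signed fold change, whose making is not given in the sources used here. The latter correlated with the ratios below at r of 0.937 to 0.954 over probes, with a median log2 of 0 in each column.

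Intensities were corrected with normexp (limma 3.58.1 in R 4.3.3, offset 50) and normalized by loess within arrays. Control spots and outlier spots (3.23% to 3.56%) were left out, and the spots of a probe were averaged. Channel levels were additionally quantile normalized on average brightness between arrays. A probe was tested when over 0.5 of its spots were well above background on at least 3 of 4 arrays in either genotype, which 16 member probes passed. Ratios were tested with limma, dye as a term, two-sided. Ratios of dim probes are drawn towards 0 by the offset, and ratios show no absolute change in RNA amount. Precision was limited by the 4 arrays, and the scripts were tested on simulated data. The within-array ratio was tested since its channels come from 1 hybridisation. The unpaired SAM comparison that the methods name was an alternative with settings of its own, all 70 regroupings and a delta of 0.99, the smallest with an estimated false discovery rate of 0, so it does not repeat the study's settings. Arrays pair the pools by hybridisation and sex. The fit of level on sex was added after the values were seen. Positions come from the array files (mm9), which do not state exons. Gene symbols matched a RefSeq table (GRCm38.p6) by accession for 28328 of 39429 probes. Named were all members, pathway genes with an adjusted p under 0.05 and otherwise the smallest p of each list, markers beside a result, and Tbx2.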

Additional observations from a re-analysis of the deposited data

Results flagged for a closer look

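Groups of 4 values over the 16 tested member probes (ratios, Sox2-Tbx2LOF levels and control levels) numbered 48. Of these, 2 held a pool set apart from the other 3 relative to the range of the group, whatever the size of that range. Chance flags about 1 in 20 such groups. For P2rx3 at A_55_P2050069, the control pool of array 2 had a log2 level of 7.97 against 8.03 in the other 3, a gap of 0.943 of the range. For P2rx7 at A_52_P393314, the control pool of array 4 had a level of 12.57 against 12.38 to 12.41, a gap of 0.842 of the range.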

How the results depend on the processing

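No member was called under any of the alternatives, and the 95% intervals of 16 of 16 member probes stayed within 1.5-fold in each limma fit. All tested probes called numbered 124 with the scanner software's log ratio, 1 with the authors' processed values, 276 with no minimum fold and 66 to 106 when an array was left out, beside 70 as reported. Members with an adjusted p under 0.05 numbered 0 to 1 when an array was left out, the 1 being Entpd2 without array 1. Pathway probes called with no minimum fold numbered 1, which was Ano1. Without the pairing by array (unpaired limma and SAM, no replicate block) 59 probes were called in each, with 0 members, and the unadjusted p in limma was 0.0442 for P2ry1 and 0.0726 for Entpd2. P2ry1 also had 0.0667 without array 4, and Entpd2 had 0.0702 with the authors' processed values and 0.0723 without the dye term. Of 224 member ratios under the alternatives, 9 changed sign, all in 5 probes with means near 0. These were P2rx2 A_55_P2038728 (0.002 with the scanner ratio, 0.010 with median centring, −0.049 to 0.043 when an array was left out), and, over the same omissions, P2rx3 A_55_P2050069 (−0.020 to 0.054), P2rx4 A_55_P2104835 (−0.038 to 0.056), P2rx7 A_52_P393314 (−0.117 to 0.029) and P2ry6 (−0.009 to 0.052). P2ry12 ranged from −0.013 to 0.145. For these sign changes the cause was not tested. Signal over background limits P2ry4.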
